A study of Mus musculus with 28 samples.

Results

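The jugular vein of the mouse lies in connective tissue that holds fat cells, and 10 genes that such adipocytes express were followed from the native vein to the arteriovenous fistula (AVF). They were chosen by symbol: the hormone and adipokine genes Adipoq, Retn, Cfd, and Lep, the lipid droplet genes Plin1 and Cidec, Lpl and Pck1, whose enzymes supply fatty acids and glycerol for fat storage, and the brown fat genes Ucp1 and Cidea. All 10 were found among the 56980 genes of the bulk table and all 10 were among the 12673 genes tested, whose DESeq2-normalized counts averaged 100 or more. Ucp1 reached that mean through the AVFs alone, since it had no count in the contralateral veins.

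All vessels came from male and female C57BL/6 mice that had undergone 5/6 nephrectomy before the jugular vein was cut and sewn, end to side, onto the carotid artery to make the AVF, so controls carried the kidney injury as well. Bulk RNA sequencing covered 7 contralateral jugular veins (2 from male and 5 from female mice), 8 early AVFs at day 3 (5 male, 3 female), 5 mid AVFs at day 10 (2 male, 3 female), and 5 late AVFs at day 21 (2 male, 3 female), with 1 library per vessel. These are the nominal days in the labels, and the study's text gives each group as a mean day with a spread. Summed counts lay between 20254173 and 29913427 in contralateral veins, 23676215 and 67457501 in early AVFs, 27021483 and 33395623 in mid AVFs, and 27855449 and 36879746 in late AVFs. Single-cell RNA sequencing covered 3 libraries, 1 of contralateral veins and 1 each of early and late AVFs, each a pool of 10 vessels from both sexes. Their labels give no day, and the study's text places single-cell early and late AVFs at later mean days than the bulk groups of the same names. The labels name no shared surgery day or batch, and p-values measure the spread between these vessels.

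White adipocytes store triglyceride in a single large droplet coated by perilipin, and secrete adiponectin, leptin, resistin, and the complement protease adipsin. Brown adipocytes hold many small droplets and mitochondria in which the uncoupling protein UCP1 turns fuel oxidation into heat. Fat around vessels can hold both kinds, and it is in contact with the outer layer of the vessel wall. In a bulk library, fewer adipocytes and less RNA per adipocyte cannot be told apart.

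Promoter sequences are shown for 3 genes: Adipoq as the most specific adipocyte gene, Retn, which had the largest fall of the 10, and Ucp1, which among bulk libraries had counts in AVFs alone. They span 250 bases before to 50 after the start of the gene, from RefSeq on GRCm38.p6, plus strand, and RefSeq windows were used for 8 of the 10 genes (9 windows). Searched on both strands were AGGTCA, the core site of many nuclear receptors, TTGCGCAA, a palindrome bound by C/EBP factors, and CCAAT, the CCAAT box, none of which lies inside another. Capitals mark the matches.
Adipoq, chr16:23146286-23146585: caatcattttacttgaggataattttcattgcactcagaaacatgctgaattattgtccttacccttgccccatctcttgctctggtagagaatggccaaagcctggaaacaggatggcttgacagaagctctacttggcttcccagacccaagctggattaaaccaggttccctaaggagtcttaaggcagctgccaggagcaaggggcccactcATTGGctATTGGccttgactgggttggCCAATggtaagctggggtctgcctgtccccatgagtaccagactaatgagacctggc
Retn, chr8:3655520-3655819: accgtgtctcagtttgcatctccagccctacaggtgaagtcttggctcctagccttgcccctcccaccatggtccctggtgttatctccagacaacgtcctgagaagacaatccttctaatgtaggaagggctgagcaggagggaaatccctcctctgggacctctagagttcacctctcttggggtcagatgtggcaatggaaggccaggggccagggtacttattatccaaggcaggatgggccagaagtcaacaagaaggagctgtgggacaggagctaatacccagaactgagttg
Ucp1, chr8:83290098-83290397: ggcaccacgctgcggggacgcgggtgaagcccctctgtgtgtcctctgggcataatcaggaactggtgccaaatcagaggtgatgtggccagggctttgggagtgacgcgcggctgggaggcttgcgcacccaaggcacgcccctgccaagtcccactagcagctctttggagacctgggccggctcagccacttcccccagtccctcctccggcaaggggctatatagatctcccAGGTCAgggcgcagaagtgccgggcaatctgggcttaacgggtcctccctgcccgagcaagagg
The Adipoq window held CCAAT 3 times, on the minus strand at −34 to −30 and −27 to −23 and on the plus strand at −7 to −3 from the start. The Ucp1 window held AGGTCA at −14 to −9, and the Retn window held none of the 3 motifs. Among the other windows, that of Lep held TTGCGCAA at −55 to −48. CCAAT was present in 37.408% of 32851 promoters of this length, AGGTCA in 16.255%, and TTGCGCAA in 0.183%.

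Levels are given in CPM, library-scaled counts as edgeR computes them from TMM-effective library sizes, as lowest, median, and highest vessel of the 7 contralateral veins and 8 early AVFs and for every vessel of the mid and late AVFs. A gene was called where it changed by 1 or more on the log2 scale with an adjusted p under 0.01 by the edgeR quasi-likelihood test over all 12673 genes. The 3 comparisons with contralateral veins share those 7 veins. In early AVFs Retn and Cfd were called lower, 2 of the 9 genes other than Ucp1, where 12.6% of all genes tested were called (6.17% higher, 6.45% lower). Ucp1 was called higher in early AVFs, but since it entered the tested genes through AVF counts alone it could hardly be called otherwise, and it is left out of these counts. In mid AVFs 1 of the 9, Retn, was called, where 6.05% of all genes were (2.74% higher, 3.31% lower), and in late AVFs again Retn alone, where 5.33% were (2.49% higher, 2.85% lower). In early AVFs no gene of the 10 lay wholly apart from the contralateral veins, as 4.47% of all genes did above and 2.34% below.

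**Figure D1:**
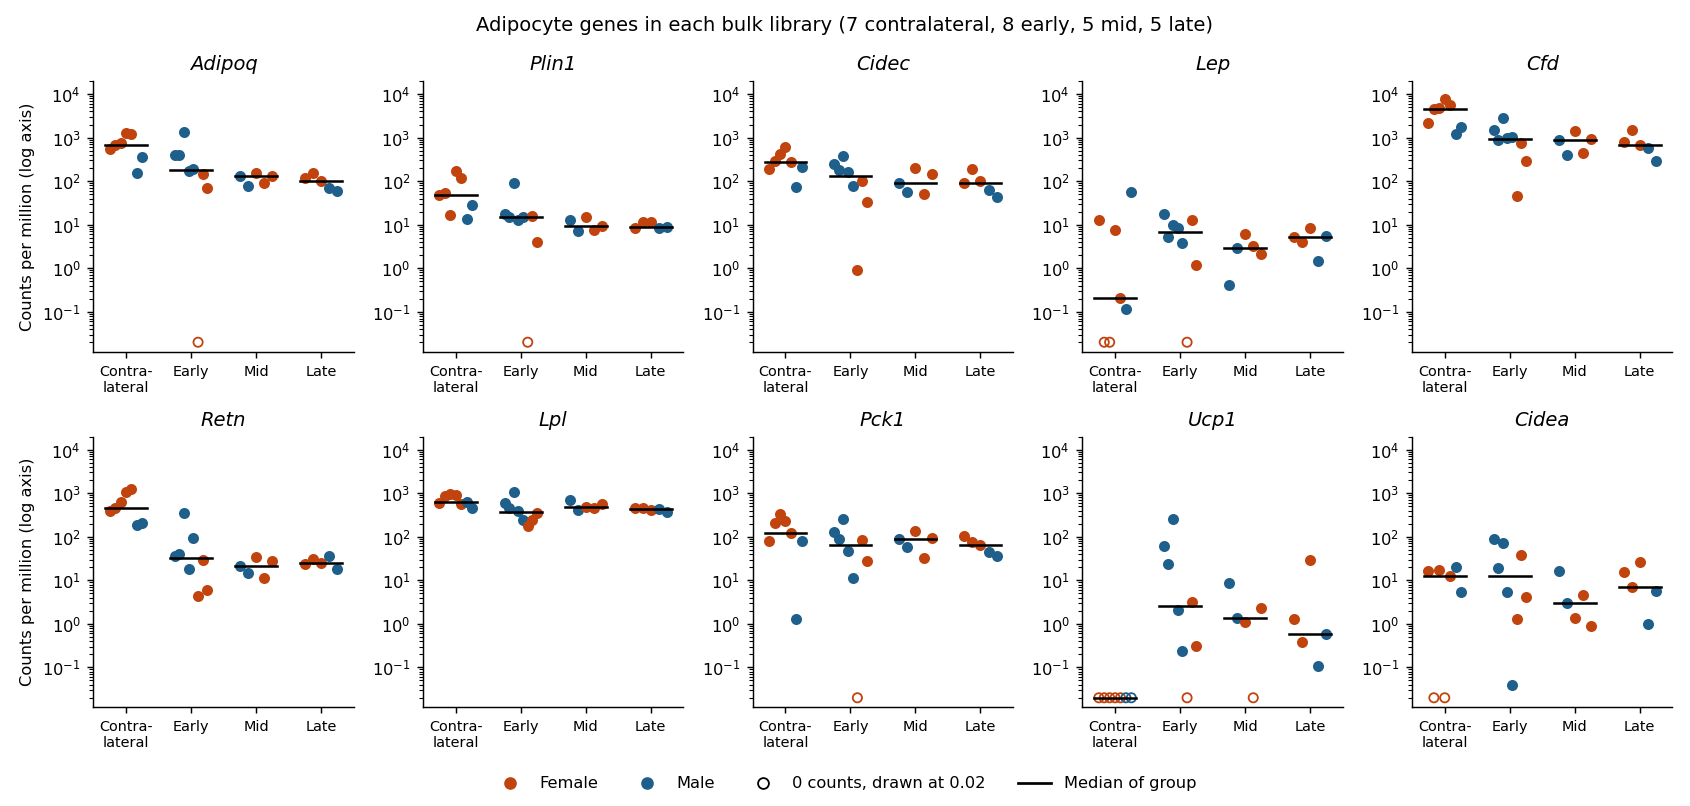
Level of each of the 10 genes in each bulk library (CPM on a log axis; one panel per gene), with a point per vessel, coloured by sex, open where the count was 0, and a bar at the group median. Retn in mid and late AVFs and Adipoq and Plin1 in late AVFs lie below every contralateral vein, and Ucp1 is at 0 in all 7 contralateral veins. For Adipoq, late AVF 17 and contralateral vein 632 are nearly level (153.1 and 153.8 CPM).

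Adipoq (chr16:23146536-23158028, plus strand, GRCm38) encodes adiponectin, an insulin-sensitizing hormone made almost only by adipocytes. It ranged from 154 CPM in contralateral vein 632 through a median of 669 to 1263 in vein 34. In early AVFs it ranged from 0 in AVF 6 through a median of 180.4 to 1359 in AVF 3. Mid AVFs 9, 12, 13, 14, and 15 had 132, 77.7, 157, 93.2, and 134 CPM, and late AVFs 16, 17, 19, 23, and 24 had 117, 153, 101, 70.3, and 60.3. Every late AVF thus lay below every contralateral vein, as held for 4.25% of all genes tested. Late AVF 17 and vein 632 were nearly level, however, at 153.1 and 153.8 CPM. Of the mid AVFs, 4 of 5 lay below every vein, and early AVFs spanned the whole range of the veins. The log2 fold change was −1.06 in early (SE 0.75, adjusted p = 0.342), −2.58 in mid (SE 0.93, adjusted p = 0.0691), and −2.83 in late AVFs (SE 0.95, adjusted p = 0.0513), none of which passed. With early AVF 6 left out, which changes the estimated spread, the mid and late differences passed (adjusted p = 0.00516 and 0.00314).

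Retn (chr8:3655770-3660110, plus strand) encodes resistin, an adipocyte hormone of rodents that opposes insulin action. In contralateral veins it ranged from 191 CPM in vein 632 through a median of 446 to 1255 in vein 35. In early AVFs it ranged from 4.34 in AVF 6 through a median of 33.2 to 353 in AVF 3, and 7 of 8 lay below every contralateral vein. In mid AVFs 9, 12, 13, 14, and 15 it was 21.3, 14.3, 34.6, 11.1, and 27.6 CPM, and late AVFs 16, 17, 19, 23, and 24 had 23.8, 30.1, 24.3, 36.9, and 18.2. No mid or late AVF reached any contralateral vein, as held for 4.69% and 4.25% of all genes tested (7.32% of genes lay wholly above in mid AVFs). The falls were 8.26-fold for Retn in early AVFs (−3.05 on the log2 scale, SE 0.67, adjusted p = 0.0015), 27.5-fold in mid AVFs (−4.78, SE 0.89, adjusted p = 0.000575), and 22.5-fold in late AVFs (−4.49, SE 0.88, adjusted p = 0.00113). The call held at each time point in all 25 fits that left out 1 library. In a fit of early AVFs and contralateral veins alone, the early difference no longer passed (adjusted p = 0.0154). The early fold comes from a fit without sex as a term. Most veins were from female mice and most early AVFs from male mice. In male mice Retn was 191 and 203 CPM in the veins and 37.0, 41.2, 353, 17.9, and 91.7 in early AVFs 1 to 5.

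Cfd (chr10:79890853-79892655, plus strand) encodes adipsin, the protease that starts the alternative pathway of complement and that adipocytes release in large amounts. It ranged from 1197 through 4480.0 to 7657 CPM in contralateral veins, and from 45.9 in early AVF 6 through 933 to 2848 in early AVF 3. Its level in mid AVFs 9, 12, 13, 14, and 15 was 899, 402, 1431, 442, and 908 CPM, and late AVFs 16, 17, 19, 23, and 24 had 813, 1468, 667, 571, and 294. The lowest contralateral vein lay above 6 of 8 early, 4 of 5 mid, and 4 of 5 late AVFs. Cfd fell by 1.93 on the log2 scale in early AVFs (SE 0.53, adjusted p = 0.0092), 3.82-fold. This call lay close to the threshold: it held in 10 of the 25 fits that left out 1 library (adjusted p 0.00308 to 0.0257) and was lost without contralateral vein 28, 31, 34, or 35, early AVF 1, 2, 4, 5, 7, or 10, mid AVF 9, 14, or 15, or late AVF 17 or 19. It was lost as well with sex as a term (adjusted p = 0.0653). Its estimates of −2.28 in mid (SE 0.64, adjusted p = 0.0186) and −2.38 in late AVFs (SE 0.65, adjusted p = 0.0154) did not pass, but without early AVF 6 they did (adjusted p = 0.00585 and 0.00499), and the late one also without contralateral vein 632 (adjusted p = 0.00967).

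Lep (chr6:29060220-29073877, plus strand), the gene of the satiety hormone leptin, was low and uneven. Its counts were 0, 0, 3, and 6 in 4 of the 7 contralateral veins and 0 in early AVF 6, and lay between 12 and 562 in the other AVFs. Contralateral veins ranged from 0 in veins 28 and 31 through a median of 0.210 to 55.2 CPM in vein 633, and early AVFs from 0 through 6.91 to 17.8. Mid AVFs lay between 0.418 and 6.12 CPM and late AVFs between 1.48 and 8.22, inside the range of the veins. The mean of the contralateral veins, 10.9 ± 20.2 CPM (SD, n = 7), rested on vein 633. The log2 fold changes of −0.56, −1.87, and −1.16 in early, mid, and late AVFs (SE 1.20, 1.45, and 1.41; adjusted p = 0.793, 0.457, and 0.670) did not pass, and without vein 633 those of early and late AVFs became 1.08 and 0.48.

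Plin1 (chr7:79720218-79732903, minus strand) encodes perilipin 1, which coats the adipocyte droplet and gates lipolysis. It ranged from 13.8 CPM in contralateral vein 632 through 48.1 to 174 in vein 34, and from 0 in early AVF 6 through 14.8 to 89.9 in early AVF 3. The mid AVFs, in the order 9, 12, 13, 14, 15, had 13.1, 7.00, 14.8, 7.74, and 9.55 CPM, and late AVFs 16, 17, 19, 23, and 24 had 8.21, 11.4, 11.8, 8.45, and 8.76. As for Adipoq, every late AVF lay below every contralateral vein, as 4.25% of all genes did, with 11.8 CPM in late AVF 19 and 13.8 in vein 632. Late AVFs differed little among themselves (9.74 ± 1.75 CPM, SD, n = 5, against 64.2 ± 59.2, n = 7, in contralateral veins). Its log2 changes of −1.60 (SE 0.76, adjusted p = 0.138), −2.62 (SE 0.94, adjusted p = 0.0682), and −2.72 (SE 0.95, adjusted p = 0.0615) in early, mid, and late AVFs did not pass by edgeR, whereas DESeq2 called the mid and late differences (adjusted p = 0.00953 and 0.00689).

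Cidec (chr6:113424634-113435760, minus strand) encodes a protein that fuses lipid droplets into one. It ranged from 71.8 through 281 to 615 CPM in contralateral veins and from 0.923 in early AVF 6 through 132 to 381 in early AVF 3. Mid AVFs 9, 12, 13, 14, and 15 had 89.7, 56.1, 203, 51.4, and 149.9 CPM, and late AVFs 16, 17, 19, 23, and 24 had 90.3, 194, 98.5, 61.2, and 43.1, so that the groups overlapped at every time point. In log2 terms it differed by −1.002 in early (SE 0.61, adjusted p = 0.261), −1.44 in mid (SE 0.72, adjusted p = 0.213), and −1.61 in late AVFs (SE 0.73, adjusted p = 0.163), none past the threshold.

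Lpl (chr8:68880491-68907448, plus strand) encodes lipoprotein lipase, which frees fatty acids from circulating lipoproteins and which macrophages and muscle make as well as fat. It varied least among the 10 genes. Contralateral veins ranged from 461 through 623 to 953 CPM and early AVFs from 175 in AVF 6 through 371 to 1071 in AVF 3. In mid AVFs 9, 12, 13, 14, and 15 it was 691, 416, 476, 449, and 553 CPM, and late AVFs 16, 17, 19, 23, and 24 had 456, 465, 402, 440.2, and 369. In early AVFs 6 of 8 lay below every contralateral vein, and the log2 fold change was −0.68 (SE 0.28, adjusted p = 0.0834). It was −0.45 in mid (SE 0.32, adjusted p = 0.407) and −0.73 in late AVFs (SE 0.32, adjusted p = 0.155).

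Pck1 (chr2:173153048-173159273, plus strand) encodes the cytosolic carboxykinase that makes glycerol backbone for triglyceride in fat. It ranged from 1.29 CPM in contralateral vein 632 through 120.3 to 329 in vein 31, and from 0 in early AVF 6 through 65.9 to 254 in early AVF 3. Its level in mid AVFs 9, 12, 13, 14, and 15 was 87.2, 57.1, 137, 31.8, and 93.9 CPM, and late AVFs 16, 17, 19, 23, and 24 had 102, 75.4, 64.0, 43.6, and 37.0. The groups overlapped throughout, and the log2 fold changes of −0.90, −0.88, and −1.22 (SE 0.82, 0.94, and 0.96) did not pass by edgeR (adjusted p = 0.474, 0.618, and 0.4662).

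Ucp1 (chr8:83290352-83298452, plus strand), the defining gene of brown and beige fat, had 0 counts in all 7 contralateral veins, as did 32 of the genes tested, 0.253%. In early AVFs it was 0 in AVF 6, 0.235 in AVF 5, 0.315 in AVF 10, 2.08 in AVF 4, 3.13 in AVF 7, 23.1 in AVF 2, 61.6 in AVF 1, and 255 CPM in AVF 3. The mid AVFs, in the order 9, 12, 13, 14, 15, had 8.57, 1.39, 1.08, 0, and 2.37 CPM, and late AVFs 16, 17, 19, 23, and 24 had 1.26, 0.381, 29.2, 0.109, and 0.584. A single vessel thus made up most of the early mean and of the late mean, and levels spread over several orders within a group. Against a floor of 3 counts in a library, 0.187 CPM in the contralateral vein where it was highest, the median of early AVFs was at least 13.9-fold higher, that of mid AVFs at least 7.44-fold, and that of late AVFs at least 3.12-fold. Above that floor lay 7 of 8 early, 4 of 5 mid, and 4 of 5 late AVFs, while late AVF 23, with 4 counts, lay under it; 6.25% of all genes lay wholly above the veins in late AVFs by any margin. Since Ucp1 passed the filter through the AVFs alone, its edgeR values (adjusted p = 0.0014, 0.0216, and 0.0121 in early, mid, and late AVFs) are given as a description; they were 0.700 for early AVFs with limma voom and sample weights and 0.101 in female mice alone. Thyroid and parathyroid marker sums were 14102 CPM in early AVF 1, 221 in mid AVF 9, and 5347 in late AVF 19, which were high in Ucp1, but also 1626 in mid AVF 12, with 1.39 CPM of Ucp1, and 7.30 in early AVF 3, with the highest Ucp1; their part in the Ucp1 level was not tested.

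Cidea, a lipid droplet gene of brown and beige adipocytes, differed from Ucp1 in being present in the native vein. Contralateral veins ranged from 0 in veins 28 and 34 through a median of 12.6 to 19.8 CPM in vein 632, and early AVFs from 0.0392 in AVF 5 through 12.3 to 90.5 in AVF 1. Mid AVFs 9, 12, 13, 14, and 15 had 16.0, 3.00, 1.38, 4.48, and 0.891 CPM, and late AVFs 16, 17, 19, 23, and 24 had 15.8, 7.17, 26.7, 0.985, and 5.55. Its log2 fold changes were 1.498, −0.99, and 0.14 (SE 1.16, 1.31, and 1.27) with adjusted p = 0.390, 0.700, and 0.965 by edgeR.

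**Figure D2:**
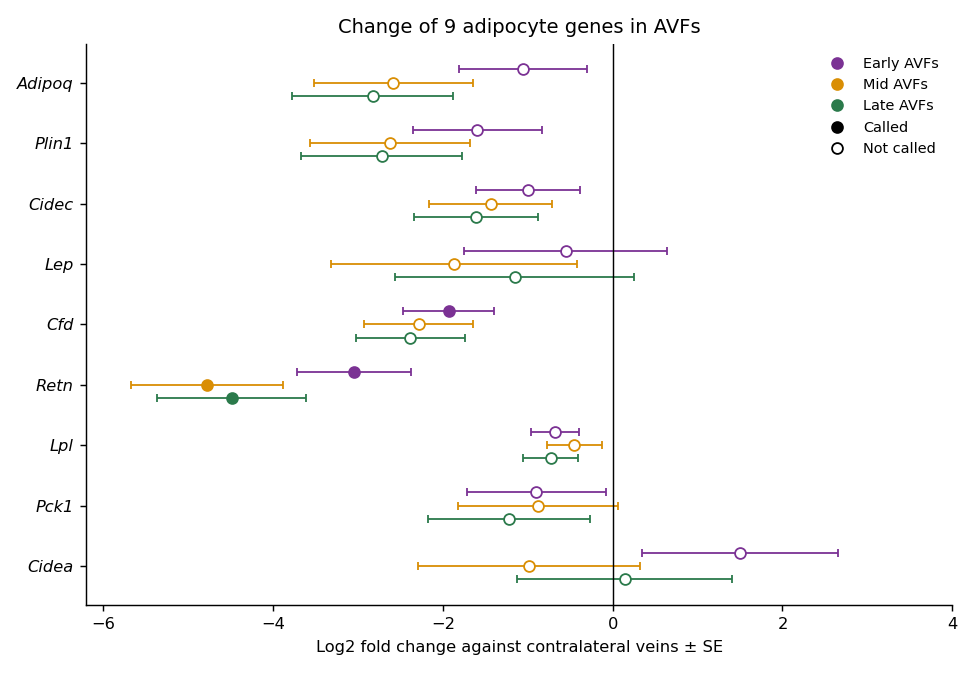
Log2 fold change of 9 of the genes against contralateral veins in early, mid, and late AVFs, as points, filled where called, with bars of 1 standard error; Ucp1 is left out because its fold has no finite estimate. Retn lies lowest at each time point, −3.05, −4.78, and −4.49.

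Between time points none of the 10 genes was called by edgeR, and none by DESeq2. At an unadjusted p under 0.05 there was 1 of 10 for mid against early AVFs (Retn, adjusted p = 0.281), 0 for late against early, and 0 for late against mid. Over all genes, 0.00789%, 3.01%, and 0% were called in these 3 comparisons. In late against early AVFs the estimates of all 10 genes were below 0, with a smallest adjusted p of 0.336, and early AVFs had much the wider spread. In female mice alone all 10 were above 0 (0.19 to 3.16), and none passed there either. The 3 early AVFs of female mice include AVF 6, which had 0 counts of Adipoq, Plin1, Lep, Pck1, and Ucp1, and its part in these estimates was not tested.

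Compared per kb of exon, the order of the genes changed between vein and AVF. In contralateral veins the median level was highest for Cfd (4859 CPM per kb), followed by Adipoq (484), Retn (283), Cidec (152), Lpl (59.5), Pck1 (35.1), Cidea (11.3), and Plin1 (10.3). In late AVFs it was 723 CPM per kb for Cfd, 72.9 for Adipoq, 48.6 for Cidec, 42.0 for Lpl, 18.7 for Pck1, 15.4 for Retn, 6.43 for Cidea, and 1.88 for Plin1. Retn, the third gene in the vein, was thus the sixth in late AVFs, as it was in mid AVFs with 13.5 CPM per kb. Cidec and Lpl differed by less than their spread in mid and late AVFs, as did Pck1 and Retn in late AVFs.

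To set the genes against the amount of adipocyte RNA, reads were counted per 100 Adipoq reads in each library, a ratio for which early AVF 6, with no Adipoq read, has no value. Retn had between 56.3 and 124 reads per 100 Adipoq reads in contralateral veins (mean 84.2 ± 22.9, SD, n = 7). It had 8.69 to 48.3 in early (19.0 ± 14.5, n = 7), 17.8 ± 4.00 in mid (n = 5), and 19.6 to 52.6 in late AVFs (29.4 ± 13.6, n = 5), in every library below every contralateral vein. Of all genes, 0.11%, 0.126%, and 0.0395% lay wholly below on this scale in early, mid, and late AVFs. A low Adipoq count raises every other gene here and so leaves few to lie below. In CPM, Slc2a4 (log2 fold change −4.05), Thrsp (−4.01), Elovl6 (−3.35), and Me1 (−3.31), described below, had larger early falls than Retn (−3.05). The place of these 4 genes on this scale is not given. With Plin1 or Cidec as the denominator 6 of the 7 early AVFs lay below, and with Cfd all 7; mid and late AVFs lay below with each.

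The other genes did not follow Retn on this scale. Cfd had 577 ± 139 reads per 100 Adipoq reads in contralateral veins (SD, n = 7), 405 ± 144 in early (n = 7), 652 ± 171 in mid (n = 5), and 723 ± 176 in late AVFs (n = 5), ranges that overlapped. Plin1 had 8.39 ± 3.37, 6.63 ± 2.40, 8.76 ± 1.08, and 10.6 ± 3.22. Pck1 went from 20.2 ± 14.2 in veins to 29.1 ± 16.2, 66.2 ± 19.6, and 64.7 ± 13.8, Cidec from 44.5 ± 12.50 to 55.3 ± 22.1, 87.3 ± 31.7, and 92.1 ± 21.8, and Lpl from 144.9 ± 119 to 195 ± 146, 451 ± 96.0, and 466 ± 145. Of all genes, 2.76%, 41.6%, and 44.4% in early, mid, and late AVFs lay wholly above contralateral veins on this scale, on which a low Adipoq count raises every other gene.

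**Figure D3:**
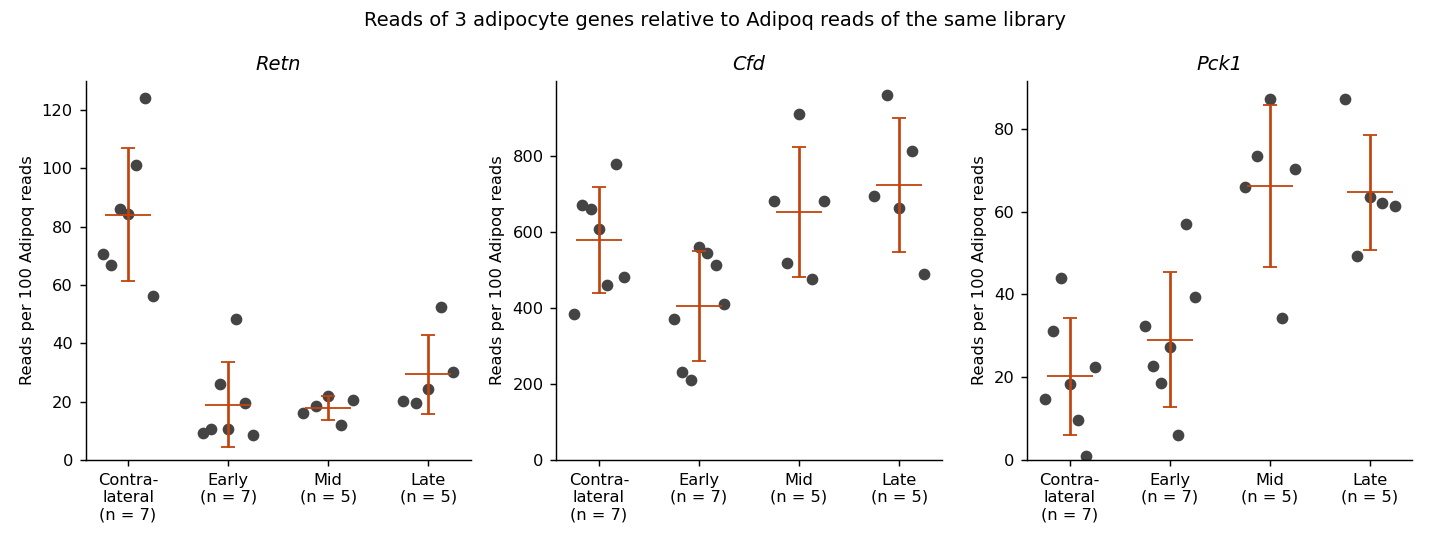
Reads of Retn, Cfd, and Pck1 per 100 Adipoq reads in each bulk library (one panel per gene), with the group mean and SD in red, without early AVF 6, which had no Adipoq read. Retn lies between 56.3 and 124 in contralateral veins and at 52.6 or less in all AVFs, while Cfd overlaps between groups.

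Single vessels stood apart. Early AVF 6 had 0 counts of Adipoq, Plin1, Lep, Pck1, and Ucp1 among 53097813 counts, which allows at most 0.0814 CPM of each, and it was the lowest early library for 9 of the 10 genes. It still held 1691 counts of Cfd, 160 of Retn, and 6459 of Lpl. Its neutrophil, mono/macro, platelet, and erythroid marker sums were the highest of the early AVFs (4454, 9035, 12695, and 18480 CPM). Early AVF 3, in contrast, was the highest early library for 8 of the 10 genes. Contralateral vein 632 was the lowest of its group for 6 of 10 genes. What set these vessels apart was not tested, and the amount of fat left on each vessel at harvest is not given.

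Marker lists moved with the groups as well. The summed white adipocyte markers, 9 genes of which 6 are among the 10 above, ranged from 1811 to 7659 CPM in the veins, 204 to 7598 in early AVFs, 482 to 1057 in mid AVFs, and 457 to 920.5 in late AVFs, with none at 0 in every library of a group. Of these 9, only 1, 2, and 2 were called lower in early, mid, and late AVFs, and 0 higher. Of all genes tested, 6.45%, 3.31%, and 2.85% were called lower and 6.17%, 2.74%, and 2.49% higher. The 6 brown adipocyte markers summed to 30.2 to 135, 25.8 to 670, 20.6 to 69.4, and 15.7 to 164 CPM, with Ucp1 at 0 in the veins. Among the 4 brown markers tested, Ucp1 alone was called, higher in early AVFs. Since it entered the tested genes through AVF counts alone, this call is no result about the brown markers. The 6 neutrophil markers ranged from 4.68 to 178 CPM in veins and 245 to 4454 in early AVFs (5 of 6 called higher), and the 8 mono/macro markers from 690 to 2295 and 2710 to 9035 (6 of 8 called higher), with none of either list at 0 throughout. Markers of the vessel wall were lower too: the 7 smooth muscle cell markers had median sums of 10840 CPM in veins and 1730, 2138, and 2612 in early, mid, and late AVFs (6, 5, and 5 called lower), and the 7 endothelial cell markers 3173 CPM and then 496, 669, and 726 (5, 6, and 5 called lower). The 8 skeletal muscle markers rose from at most 41.1 CPM in veins to as much as 4538, 6918, and 9201 in early, mid, and late AVFs (6 of 7 tested called higher each time). Not every AVF was high, as early AVFs 5 and 7 (6.78 and 5.55 CPM) and late AVFs 17 and 24 (6.85 and 38.0) lay within the range of the veins. Thyroid and parathyroid markers summed to at most 10.8 CPM in veins, and late AVFs other than AVF 19 had at most 4.03. The part of these tissues in the levels of the 10 genes was not tested.

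Early levels were lower in female than in male mice for Adipoq. It was 0, 149, and 70.3 CPM in the 3 early AVFs of female mice and 171 to 1359 in the 5 of male mice, while the 5 female contralateral veins had 552 to 1263 CPM and the 2 male veins 154 and 361. A group by sex interaction at an adjusted p under 0.05 was found for none of the 10 genes by the edgeR quasi-likelihood test, against 0.103% of all genes. It lay under 0.05 without adjustment for Retn, Cfd, Cidec, and Lpl. The edgeR likelihood ratio test gave 1 of 10, and the fit of all genes without a filter 6. In female mice alone, Retn was lower in early AVFs by a log2 fold change of −5.81 (adjusted p = 0.000879), Cfd by −3.73 (adjusted p = 0.00949), and Lpl by −1.54 (adjusted p = 0.00636, past the threshold there). Early AVF 6, the lowest early library for these 3 genes, is among the 3 early AVFs of that fit. In male mice Cfd was 1197 and 1740 CPM in the 2 contralateral veins and 907 to 2848 in the 5 early AVFs. Retn was 191 and 203 CPM in the male veins and 17.9 to 353 in the male early AVFs, with AVF 3 above both veins. The early-by-male interaction terms were 4.97 for Retn and 3.75 for Cfd on the log2 scale. Most veins came from female and most early AVFs from male mice, so the early comparison sets groups of unlike sex make-up against each other.

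Within groups, the genes varied together to different degrees. Across the 25 libraries, with each gene centred on its group median, the Spearman correlation with Adipoq was 0.917 for Cfd, 0.851 for Cidec, 0.819 for Retn, 0.811 for Pck1, 0.728 for Plin1, 0.639 for Lpl, 0.479 for Ucp1, 0.285 for Cidea, and 0.252 for Lep. The genes most alike to Adipoq among all tested were Mrap (0.936), Adig (0.917), Cfd (0.917), Thrsp (0.910), and Mgst1 (0.905). Those most alike to Ucp1 were Gsta4 (0.711), Cidea (0.668), Ngp (0.645), Hey1 (0.634), and Il1a (0.627), and those most alike to Lpl were Lamp2 (0.82897), Stx18 (0.821), Mat2b (0.820), Pcolce (0.814), and Cyp2e1 (0.788). These values share libraries and depth and are given as a description.

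Other genes of the adipocyte program were followed as 8 lists. Of all genes tested, 6.45%, 3.31%, and 2.85% were called lower in early, mid, and late AVFs, and 6.17%, 2.74%, and 2.49% higher. In lists this short, 1 or 2 calls lie near those shares and are not read as a result about the list. Fatty acid and triglyceride synthesis was the list with the most calls: of 16 genes tested, early, mid, and late AVFs had 9, 7, and 6 lower and none higher, with median log2 fold changes of −1.66, −1.96, and −1.80 beside −0.01, −0.10, and −0.09 over all genes. Thrsp, a lipogenic nuclear protein, fell from 1016 ± 757 CPM (SD, n = 7) to 63.1 ± 54.5 in early AVFs (n = 8; log2 fold change −4.01, SE 0.76) and stayed lower in mid (−4.23, SE 0.94) and late AVFs (−3.89, SE 0.93). Fasn, the fatty acid synthase, fell from 723 ± 369 CPM to 90.1 ± 51.5, 98.6 ± 29.0, and 135 ± 62.5. Elovl6, which lengthens fatty acids, changed by −3.35, −3.88, and −3.46, and Me1, which supplies NADPH for their synthesis, by −3.31, −3.54, and −3.36.

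Of 10 genes of fatty acid and glycerol transport, 3 were lower at each time point, and 2 were higher in early AVFs. Cd36, a fatty acid receptor also found on endothelium and macrophages, was 1159 ± 466 CPM in veins and 443 ± 169, 382 ± 59.4, and 273 ± 65.0 in AVFs (log2 fold change −1.39, −1.60, and −2.09). Fabp4, the adipocyte and endothelial fatty acid carrier, did not pass in early AVFs (−1.21, adjusted p = 0.0635) and fell by 3.07 in mid and 3.28 in late AVFs on the log2 scale. Slc2a4, the insulin-dependent glucose carrier GLUT4, fell in early AVFs (−4.05, SE 0.83), from 123 ± 112 to 7.42 ± 6.01 CPM, and Slc27a1, a fatty acid transporter, fell at each time point (−1.67, −1.77, and −1.77). Fabp5, a carrier found in macrophages and skin, rose in early AVFs (1.92, SE 0.38), as did Angptl4, an inhibitor of lipoprotein lipase (1.17, SE 0.30), and Fabp5 was lower again in late than in early AVFs (−2.09).

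Among 13 lipid droplet and lipolysis genes, 1 rose and 3 fell in early AVFs, 3 fell in mid, and 2 in late AVFs. Plin2, the droplet coat of macrophages and many other cells, rose from 139.6 ± 73.9 to 730 ± 405 CPM in early AVFs (2.39, SE 0.37) and was lower again in late AVFs (−1.77 against early). The caveola genes Cavin1 (−2.13, −1.40, and −1.17) and Cav1 (−1.47, −1.53, and −1.53) fell at each time point, and Mgll, which splits monoglycerides, fell in early and mid AVFs (−1.04 and −1.05). Smooth muscle and endothelial cell markers were lower in these AVFs too, and the part of those cells in the fall of Cavin1 and Cav1 was not tested. The lipase genes Lipe (0.30, 0.33, and 0.14, adjusted p = 0.745, 0.794, and 0.920) and Pnpla2 (−0.26, −0.72, and −0.90, adjusted p = 0.673, 0.303, and 0.192) did not pass.

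Of 9 transcription factors of adipocytes, 2 fell in early AVFs, 1 in mid, and 0 in late AVFs by edgeR, beside 6.45%, 3.31%, and 2.85% of all genes. Klf15, a regulator of fuel use, had log2 fold changes of −2.90 in early (SE 0.51) and −2.80 in mid AVFs (SE 0.61), and Ebf1 of −1.49 in early AVFs (SE 0.31). Pparg, the central regulator of fat cell formation, was at −1.03, −1.73, and −1.86 (adjusted p = 0.141, 0.0544, and 0.0410) and did not pass. In the list of 14 tested brown and beige fat genes, Prdm16, a regulator of that lineage also expressed in arterial cells, rose from 1.16 ± 1.71 CPM to 9.28 ± 3.70, 12.2 ± 2.66, and 15.7 ± 1.09, and Kcnk3, a potassium channel also found in smooth muscle, fell in early (−2.71) and mid AVFs (−3.25). No other gene of that list was called. Prdm16, low in the veins, entered the tested genes through its AVF counts, so it could hardly be called lower.

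Of 8 tested adipokine and hormone genes, Rbp4, a retinol carrier, fell at each time point (−2.14, −3.06, and −2.87). Apln, the gene of the vasoactive peptide apelin, was higher (6.11, 5.63, and 5.95), at 0.157 ± 0.323 CPM in veins and 11.4 ± 4.26, 8.20 ± 1.86, and 10.2 ± 2.09 in AVFs. Like Ucp1, Apln entered the tested genes through its AVF counts and could hardly be called lower, so its values are a description. Among 6 receptors, the complement receptor C3ar1 rose at each time point (4.602, 3.29, and 2.96). Cdh13, which binds adiponectin, fell in early and mid AVFs (−1.89 and −1.45), and Adipor2, an adiponectin receptor, in late AVFs (−1.59). Among 13 tested adipose progenitor genes, the preadipocyte gene Dlk1 rose in early (6.54) and mid AVFs (7.32). Its level went from 0.118 ± 0.227 CPM in veins, near the floor of 3 counts, to 11.5 ± 22.6 and 19.9 ± 13.3, with an early SD above the mean. Dlk1 too entered the tested genes through its AVF counts and could hardly be called lower. Gdf10 fell in early and mid AVFs (−3.26 and −1.93), as did F3, tissue factor (−2.55 and −1.96). The study lists both genes among those lower in fibroblasts of early and late AVFs, so their fall is not particular to adipose cells. Clec11a fell in early AVFs (−1.79), and no gene of that list was called in late AVFs by edgeR, where Gdf10 lay above early AVFs (2.04).

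**Figure D4:**
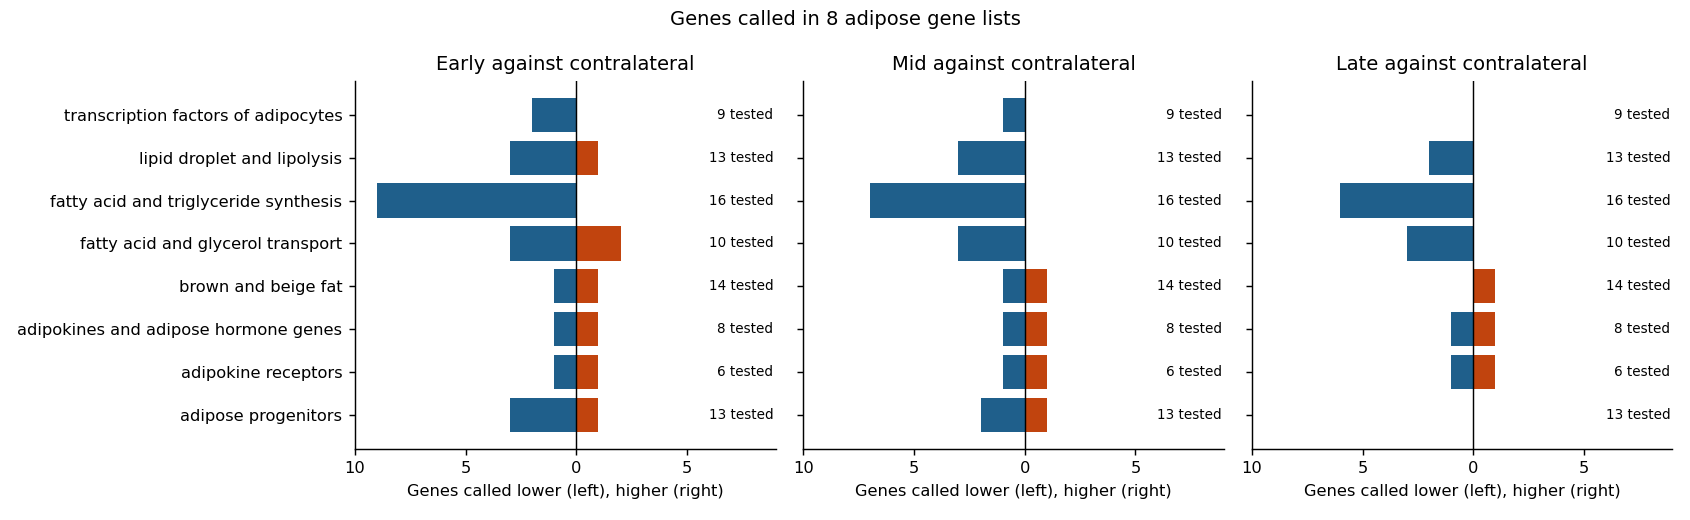
Number of genes called higher and lower against contralateral veins in each of the 8 lists of adipocyte program genes, for early, mid, and late AVFs. The synthesis list has the most lower calls, 9, 7, and 6 of 16. Higher calls take in Apln, Dlk1, and Prdm16, which entered the tested genes through their AVF counts.

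The single-cell libraries held few adipocyte reads. In kept barcodes (6319 of 11563 in the contralateral, 4753 of 7074 in the early, and 5821 of 7801 in the late library, with median UMI counts of 2751, 8951, and 15425), Adipoq had 0.377, 6.99, and 0.0711 CPM of UMIs and Lep had none. Each condition had 1 library, so values are given with exact Poisson or binomial 95% intervals, which cover counting error only. The libraries shared 14 to 19 barcodes in each pair. Barcodes with at least 4 of the 6 genes Adipoq, Plin1, Cidec, Lep, Retn, and Pck1 numbered 1 in the contralateral, 9 in the early, and 1 in the late library among all deposited barcodes, of which 1, 3, and 0 passed the filter of 200 to 6000 genes and at most 10% mitochondrial counts.

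The 9 early barcodes held 82.2% of all Adipoq UMIs of their library, 92.3% of Plin1, 90.9% of Cidec, 93.9% of Pck1, and 88.5% of Cfd, the last not part of the choice, but 5.0% of Lpl, 24.7% of Cidea, and none of the 14 Ucp1 UMIs. They had 3269 to 63052 UMIs and 2.39% to 12.9% mitochondrial counts, with 0 to 1 UMI of the endothelial gene Pecam1 and 0 to 3 of the macrophage gene C1qa. Retn was found in 4 of the 9, and over all 9 it had 16.0 UMIs per 100 Adipoq UMIs. A single barcode held 141 of these 193 Retn UMIs, and without it the ratio was 4.80 per 100. The contralateral barcode had 1 UMI each of Adipoq and Retn and none of Plin1, beside 11 of Pecam1, 310 of Fabp4, and 67 of Cd36, which endothelium expresses as well, and the late barcode had 51.5% mitochondrial counts.

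Lpl was the exception in being abundant in cells of other kinds. It had 271 CPM in the contralateral library (265 to 277), 163 in the early (160.1 to 167), and 228 in the late library (225 to 231). Of these UMIs, 88.2% lay in fibroblast-like cells of the contralateral library, and 13.4% of the early and 57.0% of the late ones did, while 77.3% of the early and 34.8% of the late ones lay in mono/macro-like cells. The level in fibroblast-like cells was 539 CPM in the contralateral (526 to 551), 106 in the early (100.1 to 112), and 254 in the late library (249 to 258). In mono/macro-like cells it was 86.7 (77.1 to 97.3), 238 (232 to 244), and 321 (314 to 328). Different clusters made up these classes: contralateral fibroblast-like cells were mostly of cluster 2, led by Inmt and Dcn, those of both AVF libraries of cluster 1, led by Ptx3 and Col3a1, and contralateral mono/macro-like cells mostly of cluster 11. Mono/macro-like cluster 0, led by Il1b and Lyz2 and with Mmp12 among its leading genes, held 70.8% of early and 31.2% of late Lpl UMIs, at 291 and 426 CPM, against 82.3 and 104 in cluster 3, led by Lyz2 and Ccl8.

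A Lpl UMI was found in 60.5% of fibroblast-like cells of the contralateral library (median 4361 UMIs) and in 5.51% of its T cell-like cells (median 3544), which set the background. In the early library it was found in 28.2% of mono/macro-like cells (median 12791) and 1.79% of T cell-like cells (median 5590). Over all cells the share was 24.2%, 22.5%, and 46.0% in the contralateral, early, and late libraries, and 13.3%, 6.92%, and 13.0% after thinning each cell to 1000 UMIs.

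Retn and Cidea also had UMIs in other classes. Among kept cells, neutrophil-like cells held 80.0% of early Retn UMIs (24.4 CPM, 19.4 to 30.4) and 39.6% of late ones (20.4, 12.7 to 31.3). A Retn UMI was found in 8.29% of early neutrophil-like cells (median 3463 UMIs) against 0.748% of mono/macro-like cells (median 12791). Over all deposited early barcodes, however, the 9 barcodes with adipocyte genes held 62.9% of Retn UMIs (193 of 307). The 3 of them that passed the filter held 0 of the 100 Retn UMIs in kept cells. Retnlg, a resistin-like gene that neutrophils express strongly, resembles Retn in sequence, and reads that fit both were not examined. Smooth muscle cell-like cells held 92.3% of the early and 92.5% of the late Cidea UMIs, at 7.38 (5.17 to 10.2) and 5.81 CPM (4.56 to 7.30), and 11.2% of them had one in the late library (median 25374 UMIs) against 0.202% of fibroblast-like cells (median 25099.5). Ucp1 had 5, 6, and 26 UMIs in the contralateral, early, and late libraries, with no class standing out. Of the early UMIs in kept cells, 87.7% of Adipoq and 93.7% of Plin1 lay in an unnamed cluster of 500 early cells with few UMIs per cell (median 1081.5), led by the parathyroid gene Pth. The 3 kept barcodes described above lay in that cluster and alone held 83.8% and 92.4%, so that its other 497 cells held 3.85% of Adipoq and 1.27% of Plin1 UMIs.

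**Figure D5:**
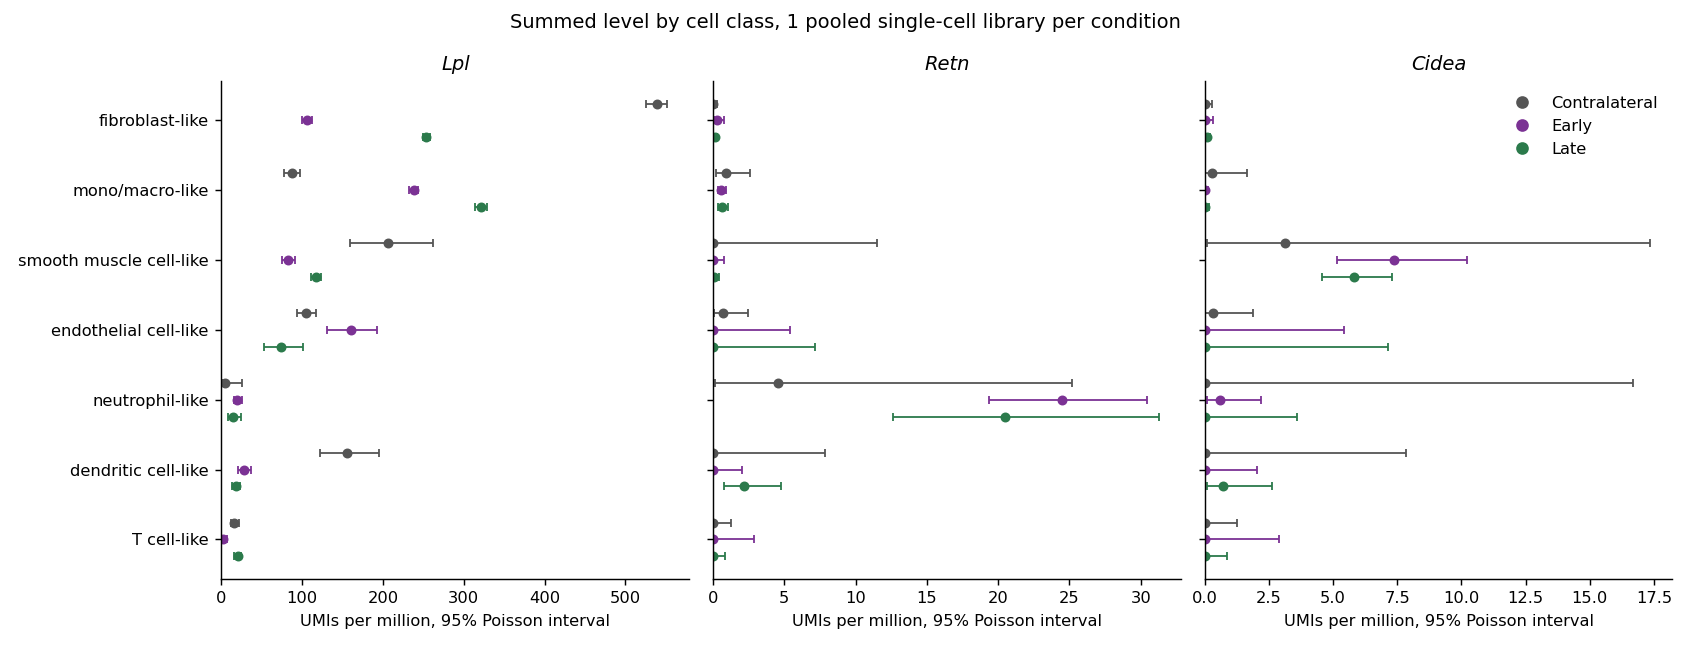
Level of Lpl, Retn, and Cidea (CPM of UMIs) in the named cell classes of the 3 single-cell libraries, as points with exact 95% Poisson intervals. Lpl is highest in fibroblast-like cells of the contralateral library (539) and in mono/macro-like cells of the early and late libraries (238 and 321), Retn in neutrophil-like cells, and Cidea in smooth muscle cell-like cells.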

How the data were processed

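Bulk and single-cell RNA sequencing of contralateral veins and AVFs was analyzed, 25 and 3 libraries. Deposited were raw counts of reads per gene for the bulk libraries, made by the authors from poly(A) RNA in an ultra-low-input protocol, and counts of UMIs per barcode for the single-cell ones. The submitters' processing notes name STAR, Cell Ranger, GRCm38, and mm10, with versions and the handling of multi-mapping reads or strand not given in the sources used here. Digestion and straining preceded the single-cell libraries. Symbols came from the single-cell gene lists for 32210 genes and from the reference annotation for 19962, and 4808 had none.

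Genes averaging 100 or more DESeq2-normalized counts were tested in edgeR 4.0.16 (R 4.3.3, limma 3.58.1) with TMM scaling and a quasi-likelihood fit of a mean for each of the 4 groups. The common dispersion was 0.710349. The procedure was tested on simulated counts. The 10 genes and the lists of other genes were chosen with earlier results of these data known. Named were all 10 genes, at most 4 called genes per list and comparison by size of change, and the 5 genes most alike to Adipoq, Ucp1, and Lpl; Angptl4 was added as the only other higher call of its list, and Pparg, Lipe, and Pnpla2 were named after their values were seen. Alternatives were 11 other settings, DESeq2 1.42.0 among them, and 25 leave-one-out fits.

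Cell barcodes that held 200 to 6000 genes, with no more than 10% of counts mitochondrial, were clustered in scanpy 1.11.5 (2000 variable genes without markers or the genes studied, 12 principal components, 20 neighbors, Leiden resolution 0.5), and clusters were named from marker lists. No doublet caller was run, and intervals cover counting error only. Promoter motifs were searched as exact letters.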

Additional observations from a re-analysis of the deposited data

Results flagged for a closer look

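Within the groups of 5 to 8 vessels, the lowest or highest library was set against the others with Dixon's ratio of its gap to the range, for 10 genes in 4 groups, 40 in all. About 1 in 20 such groups is marked by chance, and 5 were marked here. Of these, 4 were early AVF 6: Adipoq was at 0 CPM, where the next early AVF had 70.3, Plin1 at 0 (next 4.02), Cidec at 0.923 (next 32.8), and Pck1 at 0 (next 11.6). The other was contralateral vein 632, in which Pck1 was at 1.29 CPM, where the next vein had 80.9. Early AVF 6 also had the highest neutrophil, mono/macro, platelet, and erythroid marker sums of its group (4454, 9035, 12695, and 18480 CPM); the part of these cells in the low values was not tested. Without early AVF 6, Adipoq, Cfd, and Retn were called in mid AVFs, and these 3 and Ucp1 in late AVFs, where all libraries gave Retn alone. Calls over all genes moved too as single libraries were left out. They numbered 534 to 949 in mid AVFs (767 with all libraries) and 424 to 886 in late AVFs (676).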

How the results depend on the processing

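No paired analysis was possible because replicate numbers do not repeat between the bulk groups. Of the 10 genes, 3 were called in early AVFs (Ucp1 included, which could only be called higher), but 1 with limma voom and sample weights and 1 with only the 2 groups compared; leaving out each library in turn gave 2 to 3. In mid AVFs, where 1 was called, filterByExpr gave 2, no filter 3, DESeq2 4, the likelihood ratio test 3, an adjusted p under 0.05 3, and only the 2 groups 2; leaving out libraries gave 1 to 3 (3 without early AVF 6). In late AVFs, where 1 was called, the same settings gave 3, 3, 4, 3, 3, and 2, and leaving out libraries 1 to 4 (4 without early AVF 6, 2 without contralateral vein 632 or early AVF 3). Retn was among those called in mid and late AVFs under each of these settings. The counts for mid and late AVFs take in Ucp1 as well where it passed. Over all genes, leaving out libraries gave 1383 to 1816 calls in early, 534 to 949 in mid, and 424 to 886 in late AVFs. Shares of all genes called under the other settings are not set beside these counts, which therefore do not single out the 10 genes. Genes with a sex interaction numbered 0, but 6 without a filter and 1 by the likelihood ratio test. Calls among the listed pathway genes, 30, 23, and 16 in early, mid, and late AVFs, became 12, 10, and 6 with limma voom, 15, 8, and 7 in female mice alone, and 19, 15, and 11 with only the 2 groups; in late AVFs DESeq2 gave 28, the likelihood ratio test 25, and an adjusted p under 0.05 28. These counts take in Apln, Dlk1, and Prdm16 where they passed.

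No log2 fold change that turned its sign passed the test. Fits of female mice alone held 3 early AVFs, among them AVF 6, with 0 counts of Adipoq, Plin1, Lep, Pck1, and Ucp1. Lep in early AVFs became 0.18 and in late AVFs 0.51 in female mice alone. In mid against early AVFs, Pck1 became −0.13 with limma voom and −0.13 with sex as a term, and in female mice alone Adipoq became 0.80, Plin1 0.66, Cidec 1.60, Cfd 1.33, and Retn 0.87. In late against early AVFs, Lpl became 0.0348 with filterByExpr and 0.0483 with sex as a term, and in female mice alone Adipoq became 0.76, Plin1 0.64, Cidec 1.53, Lep 0.33, Cfd 1.43, Retn 0.97, Lpl 0.77, Pck1 1.10, Ucp1 3.16, and Cidea 0.19. In late against mid AVFs, Cidec became 0.0364 with limma voom and Cfd 0.0938 in female mice alone. Ranges that crossed 0 when single libraries were left out were −0.85 to 1.08 for Lep in early and −1.43 to 0.48 in late AVFs and −0.46 to 0.39 for Cidea in late AVFs. In mid against early AVFs they were −0.61 to 0.0688 for Cfd and −0.22 to 0.56 for Pck1, and in late against early AVFs −0.15 to 0.29 for Lpl and −0.52 to 0.22 for Pck1. In late against mid AVFs they were −0.21 to 0.0605 for Plin1, −0.58 to 0.18 for Cidec, −0.47 to 0.21 for Cfd, and −2.19 to 2.38 for Ucp1. The causes were not tested. Of the log2 fold changes of the 10 genes under other settings, 607 kept sign and side of the threshold, 23 turned sign, 24 newly passed, and 6 no longer passed; with a library left out these were 1453, 25, 7, and 15.

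Single-cell levels of Lpl over every deposited barcode were 223, 128, and 205 CPM in the contralateral, early, and late libraries. Among barcodes that passed the filter, a choice made after seeing the data, as were the other denominators for Retn, the count of calls without Ucp1, and the barcode left out of the Retn ratio, those with 4 or more of the 6 adipocyte genes numbered 3 in the early and 0 in the late library (9 and 1 among all deposited). Depth limits the values of Lep and Ucp1, which had 0 counts in some bulk libraries, and the single-cell values of adipocytes, which rest on few barcodes.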
